A study of Homo sapiens with 90 samples.

Results

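The response of HepaRG cells to imazalil at 3 µM was measured against the cells given the same fungicide at much lower concentrations. HepaRG, an established line from human liver, forms hepatocyte-like and biliary-like cells in 1 culture, and imazalil is a fungicide of the imidazole class. Imazalil 3 µM was measured on 3 arrays. The low doses were 15 arrays pooled, 3 at 0.001 µM, 3 at 0.003 µM, 3 at 0.01 µM, 3 at 0.03 µM and 3 at 0.1 µM. These 18 arrays were taken from the 90 deposited columns by chemical and concentration alone, with no measured value used. All 18 cultures received the chemical in DMSO vehicle at 0.2% on day 8 after thawing and were exposed for 24 h. The replicates are described by the study as separate experiments on separate batches of cells. The low doses stood in for an untreated group, and the 3 vehicle arrays of the imazalil set were kept for a check. RNA of each culture was hybridised to an Affymetrix HT HG-U133+ PM array.

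The liver adapts to foreign chemicals by making more of the enzymes and pumps that remove them. The nuclear receptors CAR and PXR, which bind DNA together with RXR, switch on genes of the CYP2B, CYP2A, CYP2C and CYP3A families, their electron donor POR and efflux pumps. The aryl hydrocarbon receptor (AHR) with its partner ARNT switches on CYP1A1, CYP1A2 and CYP1B1 from a different DNA element. Azole fungicides act on fungi by blocking the sterol demethylase CYP51, and many of them also bind P450 enzymes of the liver.

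Start-site regions are shown for CYP3A4 and for the other genes of its cluster, because the cluster holds both large and small differences, and for CYP1A1 as the leading AHR gene. The sequences, from RefSeq, run from 250 bases before to 50 bases after the RefSeq start, 5′ to 3′ on the gene's own strand, in build GRCh38.p14. Capitals mark the PXR everted repeat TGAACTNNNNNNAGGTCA in CYP3A4 and CYP3A5, its end hexamer AGGTCA in CYP3A7, and the AHR core GCGTG in CYP1A1. In CYP3A7 the letters ttaact stand in the place of TGAACT, so the full repeat was not matched. CYP3A43 is shown without capitals, since its window matched neither the repeat nor the hexamer. The marked matches begin at position -169 from the start in CYP3A4, -113 in CYP3A5, -156 in CYP3A7 and -57 in CYP1A1.
CYP3A4: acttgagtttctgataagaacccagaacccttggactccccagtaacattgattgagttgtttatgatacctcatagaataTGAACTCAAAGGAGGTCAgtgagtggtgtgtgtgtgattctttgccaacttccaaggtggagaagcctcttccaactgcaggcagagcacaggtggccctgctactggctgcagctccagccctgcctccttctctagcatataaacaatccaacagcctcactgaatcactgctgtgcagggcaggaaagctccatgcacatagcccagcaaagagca
CYP3A5: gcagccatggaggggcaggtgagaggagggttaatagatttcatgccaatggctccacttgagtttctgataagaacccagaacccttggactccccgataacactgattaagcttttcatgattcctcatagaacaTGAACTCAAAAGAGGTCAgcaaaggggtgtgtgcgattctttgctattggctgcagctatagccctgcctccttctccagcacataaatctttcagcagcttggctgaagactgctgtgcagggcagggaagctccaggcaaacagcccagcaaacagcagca
CYP3A7: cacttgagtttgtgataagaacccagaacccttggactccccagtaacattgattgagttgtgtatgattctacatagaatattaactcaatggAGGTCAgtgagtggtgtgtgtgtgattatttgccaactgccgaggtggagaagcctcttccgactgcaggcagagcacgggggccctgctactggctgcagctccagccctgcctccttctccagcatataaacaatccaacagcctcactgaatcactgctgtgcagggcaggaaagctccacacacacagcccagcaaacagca
CYP3A43: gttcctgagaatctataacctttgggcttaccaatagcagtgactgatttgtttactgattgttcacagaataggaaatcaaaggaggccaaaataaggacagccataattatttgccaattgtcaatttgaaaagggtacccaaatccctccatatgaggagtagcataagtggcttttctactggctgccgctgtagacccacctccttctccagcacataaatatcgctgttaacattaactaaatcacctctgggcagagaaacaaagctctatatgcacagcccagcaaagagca
CYP1A1: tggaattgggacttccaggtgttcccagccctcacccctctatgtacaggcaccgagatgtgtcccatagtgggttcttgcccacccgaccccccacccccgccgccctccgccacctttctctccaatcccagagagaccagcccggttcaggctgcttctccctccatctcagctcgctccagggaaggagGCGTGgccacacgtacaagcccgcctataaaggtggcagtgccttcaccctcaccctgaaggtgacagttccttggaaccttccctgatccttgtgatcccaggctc

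The windows lie at chr7:99784135-99784434, minus strand (CYP3A4), chr7:99679947-99680246, minus strand (CYP3A5), chr7:99735147-99735446, minus strand (CYP3A7), chr7:99827763-99828062, plus strand (CYP3A43) and chr15:74725479-74725778, minus strand (CYP1A1). Both strands were searched, and the hexamer is also the end of the repeat. The full repeat was found in 3 of 35116 promoter windows of this length (0.00854%), those of CYP3A4, CYP3A5 and ITGB1BP2, a muscle gene. AGGTCA was found in 13.8% of windows and GCGTG in 36.5%. These matches describe the letters of the windows and were not tested as binding sites. A window was on file for 24 of the 31 genes called below.

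The 18 arrays were alike in most respects. Array medians lay at 2.88, 2.82 and 2.91 on the log2 scale at 3 µM, against 2.81 to 2.88 at the low doses. Interquartile ranges were 2.89, 3.04 and 2.77 at 3 µM, against 2.85 to 3.06 at the low doses, so replicate 3 at 3 µM had the narrowest spread and the highest median. Its mean correlation with the other 17 arrays was also the lowest, at 0.98873, against 0.99182 to 0.99414 for the rest. The 3′ minus 5′ difference of the GAPDH control probe sets, a sign of RNA quality, was -0.31 to -0.14 at 3 µM and -0.43 to -0.17 at the low doses. The part of array spread in the results below was not tested beyond the values given with leaving arrays out.

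At 3 µM, 23 genes rose and 8 fell relative to the low doses, and the rises were led by P450 genes. CYP2B6, a CAR-responsive P450, was 10.1-fold higher. CYP3A4, the main drug-metabolizing P450 of human liver, was 4.22-fold higher by a probe set that can also bind related transcripts. CYP1A1, the leading AHR-responsive gene, was higher by 1.74 on the log2 scale. The largest falls were in IGFBP1, a secreted binding protein for insulin-like growth factors, and ADH1A, an alcohol dehydrogenase. These calls came from limma with the replicate number as a block and Benjamini-Hochberg adjustment at a false discovery rate of 0.05 over all probe sets, where each gene was represented by its brightest probe set with 1 gene symbol.

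In all, 57 of 54715 probe sets passed (0.104%), 42 higher and 15 lower. Of 19774 genes, those that rose made up 0.116% and those that fell 0.0405%. At an unadjusted p under 0.05 there were 5827 probe sets. Over all probe sets the difference had a median of 0.002 and an SD of 0.147. Of the 31 called genes, 26 had no overlap between the 3 arrays at 3 µM and the 15 low-dose arrays, and all 31 moved in 1 direction within each of the 3 replicates. Over all genes, 65 (0.329%) had every array at 3 µM above every low-dose array and 40 (0.202%) had every array below. The call itself sorts genes by separation and favours 1 direction across replicates, so the 26 and the 31 are descriptions of the called genes. The share of all genes that moved in 1 direction in each replicate was not counted.

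**Figure D1:**
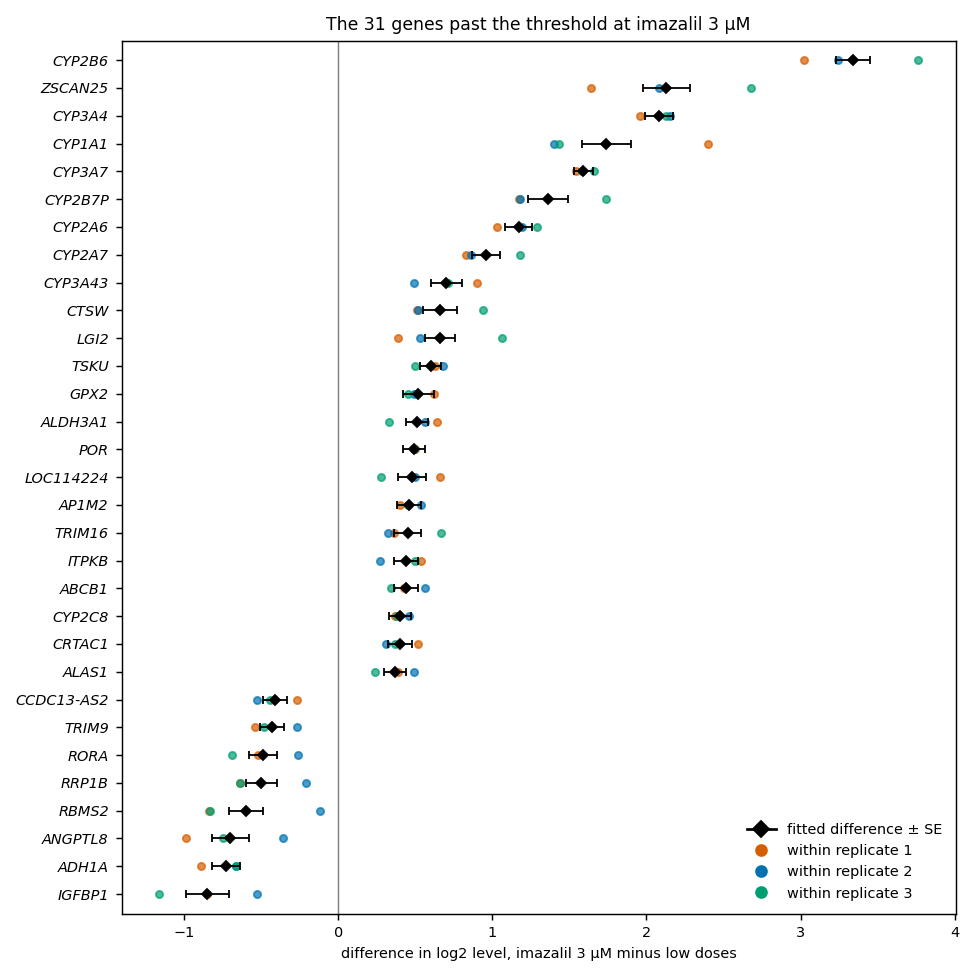
Fitted difference in log2 level between imazalil 3 µM and the low doses for the 31 called genes (diamonds, with SE as bars), with the difference within each replicate as coloured points. CYP2B6 lies at 3.34 and IGFBP1 at -0.85. The points of replicate 2 lie nearest to 0 for RBMS2, RRP1B and ANGPTL8.

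CYP2B6 gave the largest difference of all genes, and its CYP2A neighbours moved with it. CYP2B6 had log2 levels of 7.28, 7.43 and 7.82 at 3 µM, against 3.88 to 4.39 (median 4.14) on the low-dose arrays. The lowest array at 3 µM thus lay far above the highest of the 15 low-dose arrays. The fitted difference was 3.34 (SE 0.11, adjusted p = 2.49e-14 from limma), and the vehicle arrays lay at 4.03 to 4.27, within the low-dose range. A second CYP2B6 probe set rose by 1.10 (SE 0.12, adjusted p = 2.49e-05 from limma).

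CYP2B7P, a pseudogene copy of CYP2B6, had levels of 5.44, 5.42 and 5.98 at 3 µM, against 3.87 to 4.62 (median 4.28) at the low doses. CYP2A6, which oxidizes nicotine and coumarin, had 8.47, 8.54 and 8.66 at 3 µM, against 7.19 to 7.65 (median 7.38). In both genes the groups were apart on every array. The differences were 1.36 (SE 0.13) for CYP2B7P and 1.17 (SE 0.09) for CYP2A6, and all 4 CYP2A6 probe sets passed with differences of 1.17 to 1.36. CYP2A7, a close relative of CYP2A6, rose by 0.96 (SE 0.09), and CYP2A13, a P450 of the airways, had a difference of 0.35 that did not pass (adjusted p = 0.456 from limma). The probe sets of CYP2A6 and CYP2A7 and the second one of CYP2B6 are of a design that can bind related transcripts, so members of these families cannot be told apart with certainty. Against the vehicle arrays CYP2B7P, CYP2A6 and CYP2A7 did not pass (adjusted p = 0.0594, 0.172 and 0.695 from limma), with differences of 1.48, 1.17 and 0.90.

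The CYP3A genes followed. CYP3A4 had log2 levels of 11.88, 11.96 and 11.74 at 3 µM, against 9.44 to 10.13 (median 9.80) at the low doses. CYP3A7, the P450 of fetal liver, had 10.99, 11 and 10.92 at 3 µM, against 9.18 to 9.53 (median 9.38). The arrays at 3 µM were tightly grouped in both genes and clear of every low-dose array. Differences were 2.08 (SE 0.09, adjusted p = 3.63e-12 from limma) for CYP3A4 and 1.59 (SE 0.06, adjusted p = 6.81e-13) for CYP3A7.

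The probe sets of CYP3A4 did not all move. The 3 that rose, all of the cross-binding design, had differences of 2.05 to 2.35. The other, at 2.18 at 3 µM and 2.24 at the low doses, had a difference of -0.06. For CYP3A7, 1 of the probe sets outside that design rose by 0.83 (SE 0.07, adjusted p = 1.29e-06 from limma) and the other had -0.06. CYP3A43, a minor member of the cluster, had 4.62, 4.01 and 4.29 at 3 µM, against 3.25 to 3.85 (median 3.63), and all 4 of its probe sets passed with differences of 0.70 to 1.01. All 4 are of the cross-binding design. How much of the signal belongs to CYP3A4, CYP3A7 or CYP3A43 thus cannot be told with certainty, in either direction.

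CYP3A5 encodes a CYP3A enzyme that also acts outside the liver. Its brightest probe set differed by 0.29 and did not pass (adjusted p = 0.301 from limma), and a second probe set rose by 0.47 (SE 0.09, adjusted p = 0.0334). By brightest probe set the CYP3A differences thus ran 2.08, 1.59, 0.70 and 0.29 for CYP3A4, CYP3A7, CYP3A43 and CYP3A5. The windows printed above match every fixed letter of the repeat in the first and the last of these 4 genes. Whether the letters bear on the differences was not tested, and the probe sets do not fully separate these genes.

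**Figure D2:**
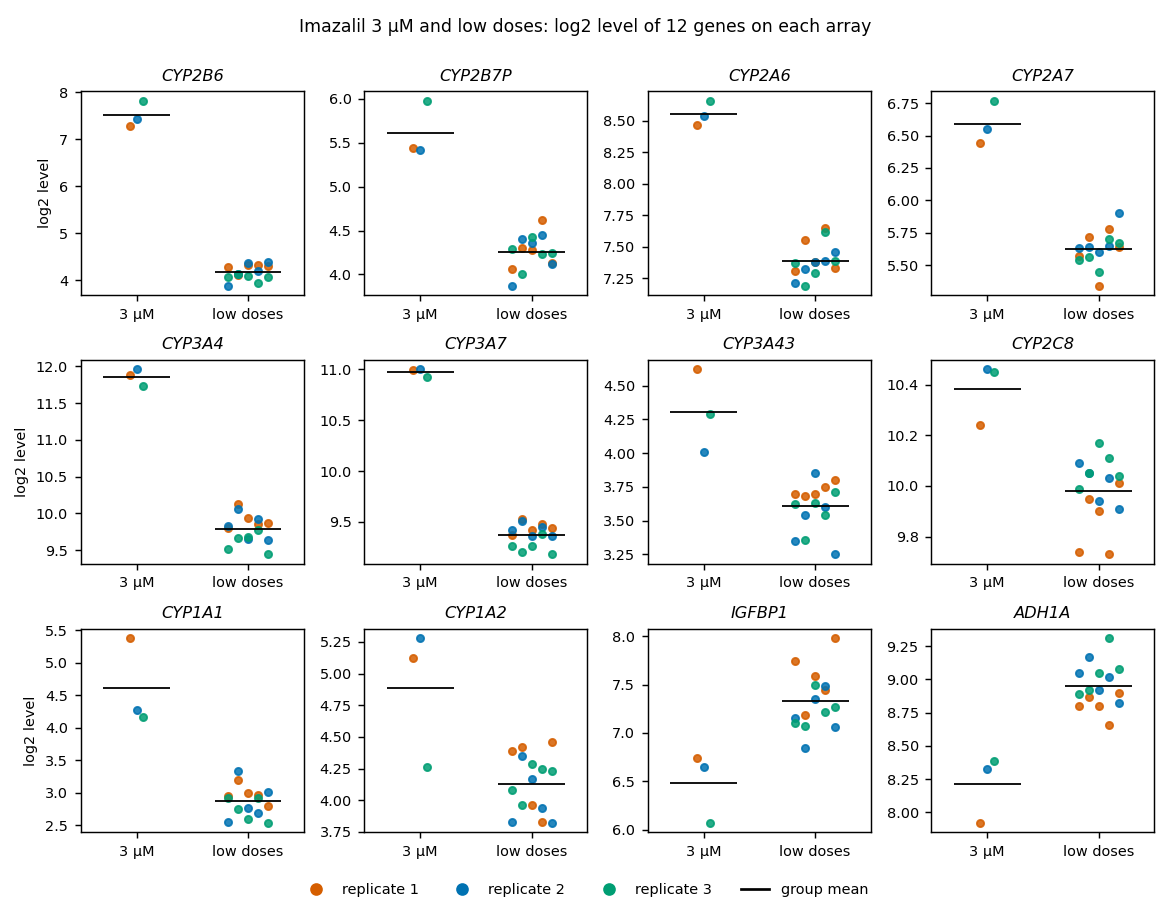
Log2 level of 12 genes on each array, 3 µM at the left and the 15 low-dose arrays at the right of each panel, coloured by replicate, with group means as lines. Every P450 panel except CYP1A2 shows the 3 arrays at 3 µM above all low-dose arrays. In IGFBP1 and ADH1A they lie below all of them. Each panel has its own axis range, which does not start at 0.

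CYP1A1 had the largest difference among the AHR-responsive genes, with log2 levels of 5.38, 4.27 and 4.17 at 3 µM, against 2.53 to 3.34 (median 2.91) at the low doses. Replicate 1 stood above the other 2 arrays at 3 µM, but all 3 were above every low-dose array. The fitted difference was 1.74 (SE 0.16, adjusted p = 1.43e-06 from limma), with a range of 1.42 to 1.92 when a replicate was left out. Against the 3 vehicle arrays in place of the low doses it was 1.73 and did not pass (adjusted p = 0.123). The low-dose mean of 2.86 lay at the level of the array medians, so whether CYP1A1 was above background there was not shown, and the difference is a lower bound if it was not.

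ALDH3A1, an aldehyde dehydrogenase of the AHR gene battery, had 8.70, 8.52 and 8.26 at 3 µM, against 7.85 to 8.13 (median 7.97), a rise of 0.51 (SE 0.07, adjusted p = 0.00107 from limma). CYP1A2, the neighbour of CYP1A1 in the genome, had 5.12, 5.28 and 4.26 at 3 µM, against 3.82 to 4.46 (median 4.17). The third array overlapped the low doses, and the difference of 0.75 (SE 0.16) did not pass (adjusted p = 0.0924 from limma). Without that array it was 1.08 (adjusted p = 0.00331 from limma), and over the 21 alternatives it ran from 0.50 to 1.08. This probe set is also of the design that can bind related transcripts. A second CYP1A2 probe set had a difference of 0.41 and did not pass (adjusted p = 0.294 from limma). CYP1B1, another AHR-responsive P450, had a difference of -0.05 (SE 0.09). Of the 10 listed AHR targets 2 passed as rises, beside 0.116% of all genes that rose. The list had a median difference of 0.08, beside 0.00 for all genes. NQO1 (0.17), TIPARP (-0.14) and AHRR (0.10) were among those that did not pass.

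CAR and PXR targets were represented by 16 measured genes. Of these, 9 rose by limma, beside 0.116% of all genes, and 14 had an unadjusted p under 0.05, beside 2226 of 19774. Their median difference was 0.39, beside 0.00 for all genes. The list was drawn up with earlier results of these data known, so its count is a description. Apart from the P450s, the risers were POR, ALAS1 and ABCB1. POR, the reductase that passes electrons to microsomal P450s, had 8.27, 8.20 and 8.06 at 3 µM, against 7.44 to 7.88 (median 7.71), with differences of 0.50, 0.49 and 0.49 within the 3 replicates. ALAS1, the rate-limiting enzyme of heme synthesis, rose by 0.37 (SE 0.07, adjusted p = 0.0334 from limma), and 1 of its arrays at 3 µM overlapped the low doses. ABCB1, the efflux pump P-glycoprotein, had 8.82, 8.76 and 8.52 at 3 µM, against 8.06 to 8.51 (median 8.27). Its rise was 0.44 (SE 0.08).

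CYP2C8, which metabolizes paclitaxel, had 10.24, 10.46 and 10.45 at 3 µM, against 9.73 to 10.17 (median 10.01). It rose by 0.40 (SE 0.07, adjusted p = 0.021 from limma), and its second probe set, at 0.33, did not pass (adjusted p = 0.343). The calls of ALAS1, ABCB1 and CYP2C8 were lost in 15, 13 and 14 of the 21 alternatives, among them the fit with no replicate block (adjusted p = 0.0612, 0.0609 and 0.0773), and those of POR and CYP3A43 in 4 each. As the mean of its probe sets ABCB1 had a difference of 0.15 (adjusted p = 0.644). The remaining targets did not pass. They included the canalicular pump ABCC2 (0.27), the epoxide hydrolase EPHX1 (0.32) and the sulfotransferase SULT2A1 (0.21), while GSTA1 (0.02) and THRSP (-0.17) lay near 0 or below. Among the 14 genes of heme synthesis and electron transfer only POR and ALAS1 passed, beside 0.116% of all genes that rose. FECH had 0.02 and CYB5A 0.14.

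Other rises were smaller. TSKU, a secreted leucine-rich proteoglycan, had 9.27, 9.01 and 8.88 at 3 µM, against 8.25 to 8.75 (median 8.39), a rise of 0.60 (SE 0.07, adjusted p = 0.000143 from limma). GPX2, a glutathione peroxidase of epithelia, rose by 0.52 (SE 0.10) and TRIM16, a tripartite motif protein, by 0.45 (SE 0.09). AP1M2, an adaptor subunit of epithelial protein sorting that also stands in the biliary marker list, rose by 0.46 (SE 0.08), whereas its second probe set, at 0.16, did not pass. LGI2, a secreted leucine-rich protein, rose by 0.66 (SE 0.10), and CTSW, a cysteine protease of cytotoxic lymphocytes, by 0.66 (SE 0.11). The LGI2 difference was 0.46 (adjusted p = 0.162 from limma) without the third array at 3 µM. CRTAC1, ITPKB and the uncharacterized LOC114224 rose by 0.40 to 0.48. The low-dose means of LGI2, CTSW and these 3 genes, at 2.62 to 2.93, lay near the array medians. The second probe sets of CRTAC1 (0.30) and GPX2 (0.13) and the other ITPKB probe sets (-0.07 to 0.11) did not pass. GPX2, TRIM16, AP1M2, ITPKB and LOC114224 lost their calls in 12, 10, 12, 16 and 17 of 21 alternatives. GPX2, TRIM16, CYP2C8, CRTAC1, ITPKB and LOC114224 lay outside the naming rule and were picked with their values in view.

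The 8 genes that fell had differences of -0.41 to -0.85. IGFBP1 had log2 levels of 6.74, 6.65 and 6.07 at 3 µM, against 6.84 to 7.98 (median 7.27) at the low doses. It fell by 0.85 (SE 0.14, adjusted p = 0.0141 from limma). A second IGFBP1 probe set, with means of 1.96 and 1.99, had -0.04 and did not pass. ADH1A had 7.92, 8.33 and 8.39 at 3 µM, against 8.66 to 9.31 (median 8.92), and fell by 0.73 (SE 0.09, adjusted p = 0.000132). Neither gene overlapped between 3 µM and the low doses. ANGPTL8, a liver-secreted regulator of lipoprotein lipase, fell by 0.70 (SE 0.12). It had 4.00, 4.87 and 4.63 at 3 µM, against 4.62 to 5.57 (median 5.29), and the groups overlapped. IGFBP1, ADH1A and ANGPTL8 lost their calls in 10, 2 and 10 of 21 alternatives.

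RORA, a nuclear receptor of the circadian and lipid programmes, fell by 0.49 (SE 0.09, adjusted p = 0.0283 from limma), and the 9 other RORA probe sets, at -0.57 to 0.09, did not pass. RBMS2, an RNA-binding protein, fell by 0.60, RRP1B, a nucleolar protein, by 0.50, TRIM9, a ubiquitin ligase, by 0.43, and the antisense transcript CCDC13-AS2 by 0.41. These 4 and RORA had adjusted p of 0.0283 to 0.0435 and rested on single probe sets. With no replicate block 3 genes fell in place of 8, and without the first or the third array at 3 µM 2 and 1 did. Only ADH1A among the 8 passed without each array at 3 µM in turn (adjusted p = 0.00155 to 0.0115 from limma). Without all arrays of replicate 1 its adjusted p was 0.0615.

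The calls depended on which array at 3 µM was present. Without the second, 554 probe sets passed, 86 genes rose and 129 fell. Without the first the counts were 45, 14 and 2, and without the third 26, 12 and 1. Quantile normalization of all 18 arrays, which gives them the same spread, left 64 probe sets, 25 rises and 7 falls. With the columns shifted to the same median 14 genes rose and 8 fell. CYP2B6, CYP3A4, CYP3A7 and ZSCAN25 passed under all 21 alternatives examined for single genes.

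The called P450 genes other than CYP2C8 lie in 3 groups of neighbours. In the gene table of GRCh38.p14, ZSCAN25, CYP3A5, CYP3A7, CYP3A4 and CYP3A43 follow each other on chromosome 7, and CYP2A6, CYP2A7, CYP2B7P, CYP2B6 and CYP2A13 on chromosome 19. ZSCAN25, a zinc finger gene, had 8.32, 8.72 and 8.91 at 3 µM, against 5.87 to 6.95 (median 6.60), a rise of 2.13 (SE 0.15, adjusted p = 3.52e-08 from limma). That rise was seen in 1 of its 3 probe sets, and the others, at 0.20 and 0.23, did not pass. Which transcript the rising probe set reads was not tested.

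The nearest measured genes outside the groups lay near 0. These were TMEM225B (0.03) and TRIM4 (0.01) for the CYP3A group, EGLN2 (0.11) and CYP2F1 (0.00) for the CYP2A and CYP2B group, and EDC3 (0.08) and CSK (0.00) for the CYP1A pair on chromosome 15. None of these 6 neighbours passed (adjusted p = 0.707 to 0.999 from limma). CYP2F1, at 2.16 in both groups, lay below the array medians, and TMEM225B, at 3.14 and 3.11, lay near them. A change in CYP2F1 or TMEM225B could thus have gone unseen.

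**Figure D3:**
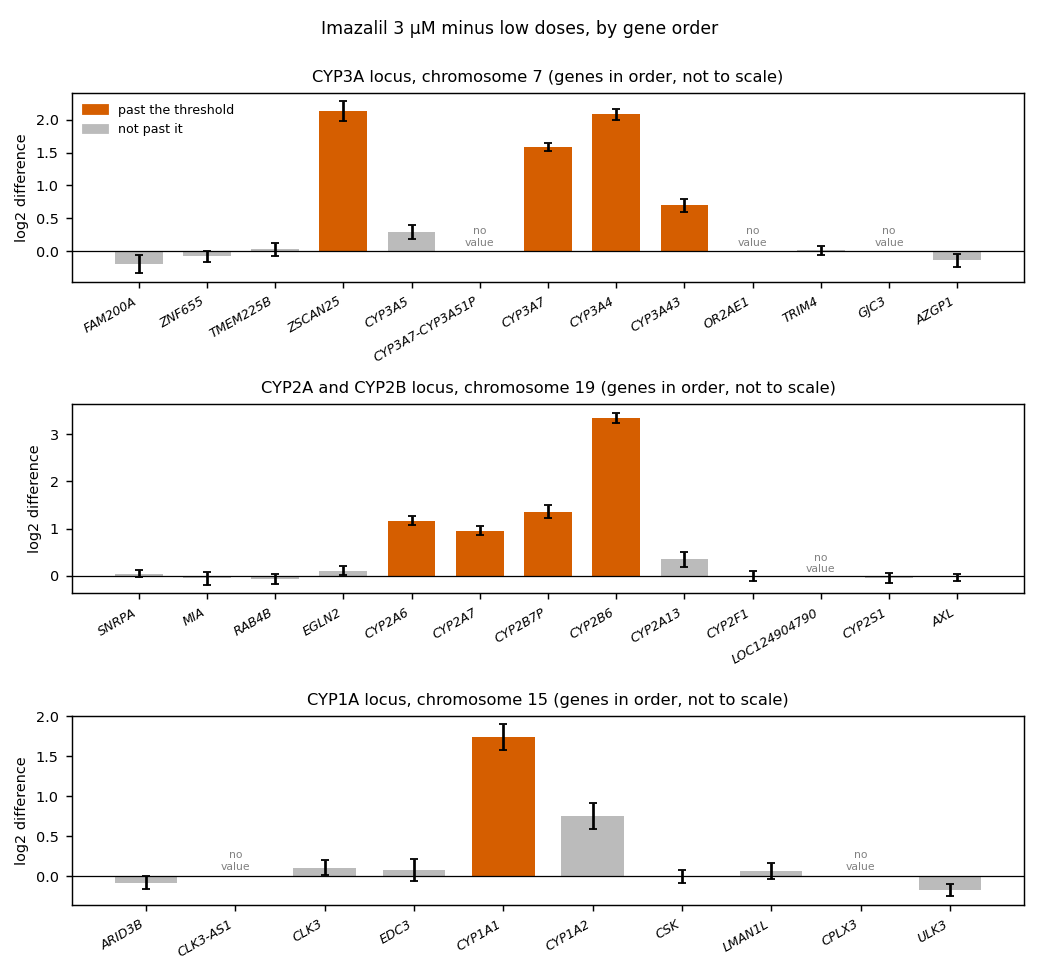
Difference in log2 level between imazalil 3 µM and the low doses (bars, with SE) for genes in their order on chromosomes 7, 19 and 15, not to scale. Orange bars passed the threshold. The orange bars stand next to each other apart from CYP3A5 (0.29), and the bars at both ends of each panel are near 0.

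Most other listed programmes of the liver cell held no called gene. Over all genes 0.116% rose and 0.0405% fell, so an empty list says little by itself. An unadjusted p under 0.05 was found for 2226 of 19774 genes. None of the 20 measured genes of cholesterol synthesis passed by limma, 2 had an unadjusted p under 0.05, and their median difference was 0.04. HMGCS1, the first committed step of that pathway, had 10.04, 9.96 and 9.93 at 3 µM, against 9.63 to 10.10 (median 9.87), a difference of 0.12 (SE 0.08, adjusted p = 0.588 from limma), and CYP51A1, the human sterol demethylase, had 0.04. None of the 24 genes of the integrated stress response passed by limma, with 4 at an unadjusted p under 0.05. In that list TRIB3, a pseudokinase, had a difference of -0.02 and INHBE, an activin subunit, of -0.47 (SE 0.14, adjusted p = 0.237), with 6.74, 7.56 and 7.56 at 3 µM, against 7.02 to 8.30 (median 7.73).

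The NRF2 list had 14 of 18 genes above 0 and a median of 0.15, with HMOX1 at 0.36 and SLC7A11 at 0.29, but none passed by limma. An unadjusted p under 0.05 was found for 8 of the 18, beside 2226 of 19774 genes, and over all genes 49.3% were above 0. Phase II conjugation, bile acid, fatty acid, p53, heat shock, interferon and acute phase lists likewise held no gene called by limma, with 0 to 5 genes at an unadjusted p under 0.05 and medians of -0.13 to -0.01. CYP7A1, the rate-limiting enzyme of bile acid synthesis, had -0.51 (adjusted p = 0.163 from limma). In the nuclear receptor list only RORA passed, while the genes of CAR itself, NR1I3 (0.02), of AHR (-0.21) and of RXRA (-0.09) did not.

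The mean level of the hepatocyte markers other than CYP3A4 was lower at 3 µM. The mean log2 level of 13 hepatocyte markers was 11.08 to 11.14 at 3 µM, against 11 to 11.13 at the low doses, and CYP3A4 was the only member that passed. Without CYP3A4, a choice made after seeing the values, the other 12 had means of 11.02 to 11.08 at 3 µM, against 11.12 to 11.23 at the low doses, so the groups did not overlap. Their mean difference was -0.12, and 2 of the 12 were above 0. AHSG, a secreted plasma glycoprotein, had -0.44, CPS1, the first enzyme of the urea cycle, -0.36, CYP2E1, the ethanol-oxidizing P450, -0.30 and ALB -0.03. Complement and coagulation genes were above 0 in 2 of 16 and acute phase genes in 3 of 12. Cell cycle genes were above 0 in 14 of 20, and all genes in 49.3%. The part of the marker shift in the calls above was not tested, nor was the part of array spread in that shift. The 10 biliary markers had 5.59 to 5.70 at 3 µM, against 5.54 to 5.73, with KRT19 at -0.07 and KRT7 at 0.10. Mesenchymal markers had 6.09 to 6.31, against 6.13 to 6.48. Of those 12, 3 were above 0 and 5 had an unadjusted p under 0.05 by limma, beside 2226 of 19774 genes. The collagen COL1A1 had -0.73 (adjusted p = 0.203 from limma) and LUM -0.36. Endothelial markers had 2.93 to 3.01, against 2.81 to 3.07, and immune markers 2.99 to 3.21, against 2.90 to 3.10. The means of these last lists lay near the array medians, so whether most of their genes were above background was not shown. Fewer cells of a type and less RNA per cell cannot be told apart in such bulk samples.

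No difference among the low doses was called. Between the 5 concentrations, 0 probe sets differed by limma's moderated F (0%), with 2900 at an unadjusted p under 0.05. The 3 vehicle arrays against the 15 low-dose arrays also gave 0 called probe sets (0%) by limma, with 4886 at an unadjusted p under 0.05. For CYP3A4 the vehicle arrays lay at 9.75 to 10.01, and for CYP1A1 at 2.56 to 3.08. Both ranges fell inside those of the low doses. Other called genes were less clear of the vehicle arrays. RBMS2 lay at 3.64 to 4.12 at 3 µM, against 3.62 to 4.28 on the vehicle arrays, and CTSW at 3.24 to 3.75 at 3 µM, against 2.54 to 3.78. IGFBP1 lay at 6.07 to 6.74 at 3 µM, against 6.68 to 7.48 on the vehicle arrays, and ALDH3A1 at 8.26 to 8.70, against 7.97 to 8.43.

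The 3 µM response was then placed in the concentration course, with all 27 treated imazalil arrays in a single fit and each concentration set against the same low-dose arrays. At 0.3 µM 0 probe sets passed (0%) by limma, with 2060 at an unadjusted p under 0.05. At 1 µM 12 passed (0.0219%), with 3374 at an unadjusted p under 0.05, and at 10 µM 965 (1.76%). Between 10 and 3 µM 82 probe sets differed (0.15%). Because these comparisons share the low-dose arrays, their values are given side by side.

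A step between 10 and 3 µM was called for some P450 genes and not for others, and the difference in step between genes was not tested. CYP2B6 differed from the low doses by 0.16, 1.47, 3.34 and 3.34 at 0.3, 1, 3 and 10 µM, and the step between 10 and 3 µM was 0.00 (adjusted p = 0.998 from limma). CYP2A6 gave 0.24, 0.58, 1.17 and 1.02 at the same concentrations, with a step of -0.15 (adjusted p = 0.825). CYP3A4 gave 0.09, 0.78, 2.08 and 2.8 and a step of 0.72 (adjusted p = 0.000618). CYP3A7 behaved likewise, with a step of 0.76 (adjusted p = 4.59e-05 from limma). The probe sets of CYP3A4 and CYP3A7 used here can also bind related transcripts, so their steps cannot be fully told apart.

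For the CYP1A genes the step between 10 and 3 µM was the largest part of the course. CYP1A1 differed by -0.18, 0.39, 1.74 and 5.42 at 0.3, 1, 3 and 10 µM, and CYP1A2 by -0.01, 0.30, 0.75 and 3.45. A rise below background would not be seen for CYP1A1 at the lower concentrations, so these values do not date its onset. Their steps between 10 and 3 µM were 3.68 (adjusted p = 4.22e-09 from limma) and 2.70 (adjusted p = 1.95e-07). ALDH3A1 passed at 1 µM, with 0.40 (adjusted p = 0.0436 from limma), and gave 0.51 and 0.74 at 3 and 10 µM. Its arrays at 1 µM lay at 8.19 to 8.51, against 7.97 to 8.43 on the vehicle arrays, so these overlapped. POR, ALAS1 and ABCB1 reached 0.99, 1.27 and 1.03 at 10 µM, and each was higher there than at 3 µM (adjusted p = 0.0324, 6.01e-06 and 0.000618).

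Of the genes that fell at 3 µM, ADH1A gave -0.26, -0.73 and -1.46 at 1, 3 and 10 µM and IGFBP1 -0.28, -0.85 and -1.47. INHBE, which did not pass at 3 µM, was lower at 10 µM by -1.60, and its step between 10 and 3 µM was -1.13 (adjusted p = 0.00426 from limma). Several weaker calls at 3 µM were not called at 10 µM. There LGI2 had 0.18, CTSW 0.31, CRTAC1 0.17, ITPKB 0.14 and LOC114224 0.06, and RBMS2 had -0.23, RRP1B -0.19 and TRIM9 -0.16. Their steps between 10 and 3 µM did not pass either (adjusted p = 0.166 to 0.562 from limma). In this fit of 27 arrays RORA, TRIM9 and ITPKB missed the threshold at 3 µM as well (adjusted p = 0.101, 0.0502 and 0.0955).

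**Figure D4:**
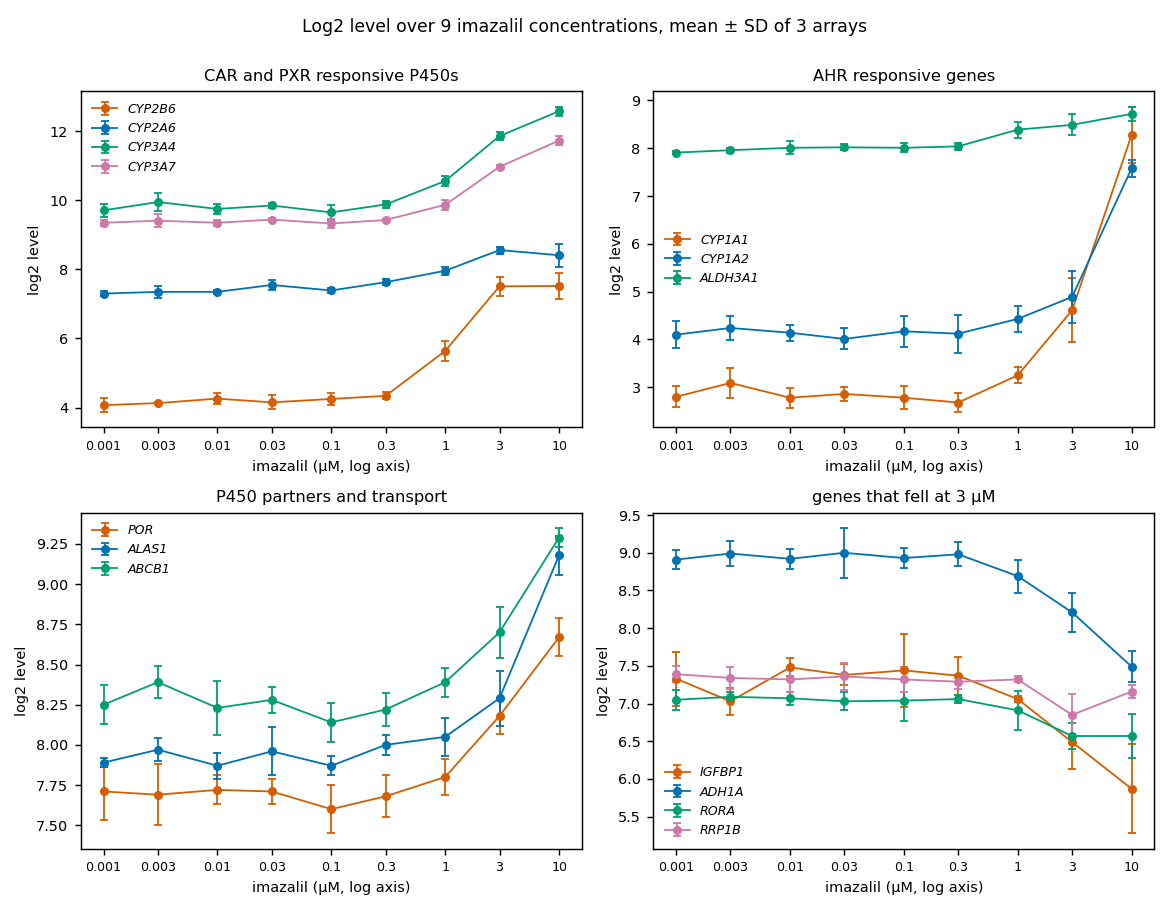
Mean log2 level (points) and SD over 3 arrays (bars) at 9 imazalil concentrations, on a logarithmic concentration axis, for 4 groups of genes with separate level axes. CYP2B6 is at 7.51 at 3 µM and 7.52 at 10 µM, whereas CYP1A1 is at 4.61 at 3 µM and 8.28 at 10 µM.

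The same concentration and time were tested for fenbuconazole, a fungicide of the triazole class, and for 2,4-D, a chlorophenoxy herbicide. Each 3 µM group was first set against the low doses of its own chemical, so no array was shared. Fenbuconazole at 3 µM called 10 probe sets (0.0183%), and 2,4-D called 0 (0%) by limma with 2317 at an unadjusted p under 0.05. The difference between the imazalil and fenbuconazole responses passed for 10 probe sets (0.0183%) and that between imazalil and 2,4-D for 29 (0.053%).

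CYP2B6 differed from its low doses by 3.34 with imazalil and 1.67 with fenbuconazole, and the responses differed by 1.67 (95% interval 1.20 to 2.14, adjusted p = 9.73e-05 from limma). For CYP3A4 they were 2.08 and 0.93, a difference of 1.15 (0.94 to 1.36). For CYP1A1 they were 1.74 and 0.08, a difference of 1.67 (1.20 to 2.14). The first pair of genes thus moved with both azoles and more with imazalil, and CYP1A1 was called with imazalil alone. CYP3A7 (1.59 and 0.57) and ZSCAN25 (2.13 and 0.89) also differed between the azoles. The CYP3A4 and CYP3A7 values again came from probe sets that can bind related transcripts.

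For other genes no difference between the azoles was called. CYP2A6 gave 1.17 with imazalil and 0.57 with fenbuconazole, a difference of 0.60 (95% interval 0.27 to 0.94, adjusted p = 0.276 from limma). CYP2C8 gave 0.40 and 0.30, a difference of 0.11 (-0.15 to 0.37). IGFBP1 gave -0.85 and 0.04, a difference of -0.89 (-1.33 to -0.44, adjusted p = 0.223). Intervals are for single genes, so they can leave out 0 where the adjusted p does not pass.

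With 2,4-D, CYP2B6 differed from its low doses by 0.04, CYP3A4 by 0.18 and CYP1A1 by 0.12. The imazalil response was larger by 3.30 (95% interval 2.98 to 3.61), 1.90 (1.68 to 2.11) and 1.62 (1.20 to 2.05). CYP2B7P, CYP2A6, CYP2A7, TSKU, ALDH3A1, POR, ABCB1 and ADH1A differed from the 2,4-D response too, with adjusted p of 0.0356 or less.

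**Figure D5:**
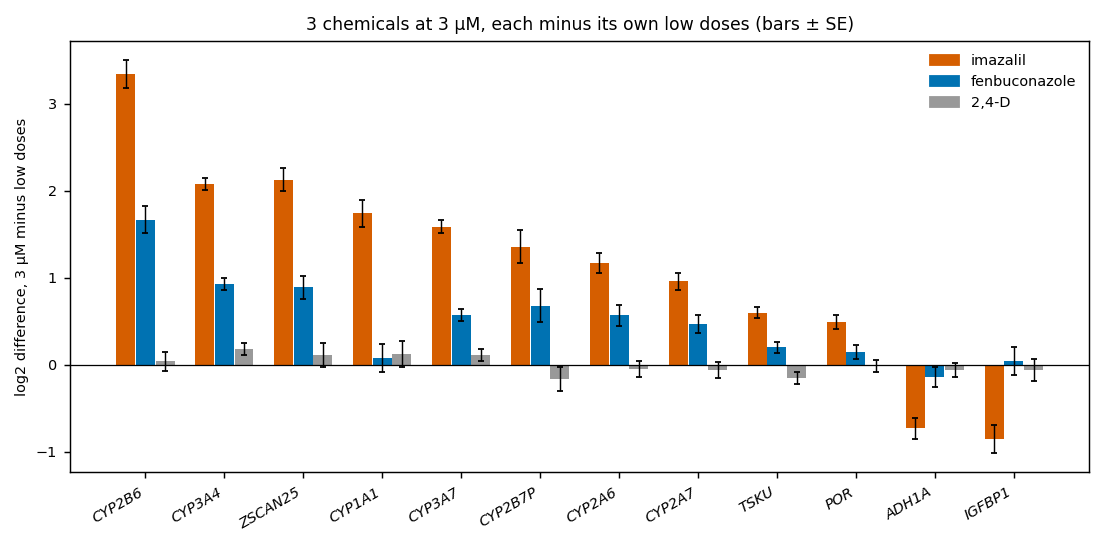
Difference in log2 level between 3 µM and the low doses of the same chemical (bars, with SE) for imazalil, fenbuconazole and 2,4-D in 12 genes. For CYP2B6 the bars stand at 3.34, 1.67 and 0.04, and for CYP1A1 only the imazalil bar, at 1.74, is clear of 0.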

How the data were processed

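The deposited log2 values are expression levels that the authors made by robust multi-array averaging (RMA), chemical by chemical, and the same 3 DMSO arrays entered each set. RMA and Partek are named in the submitters' notes, with versions not given in the sources. The tests were run with limma 3.58.1 (R 4.3.3) and the plots with matplotlib 3.10.9 (Python 3.11.15). The number of arrays limits the precision, and 14 residual degrees of freedom were left in the comparison.

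Symbols came from the platform annotation, in which 40920 probe sets carried 1 symbol, 864 several and 12931 none listed. By Entrez Gene identifier 40864 matched the GRCh38.p14 table, and 0 symbols changed. Each gene took the value of whichever probe set with 1 symbol was brightest on average across the 18 arrays. The members and lists were chosen with earlier results of these data known. Genes were named as the 12 largest rises and up to 12 falls, 9 genes in every case (CYP1A1, CYP1A2, CYP1B1, CYP2B6, CYP3A4, CYP3A7, HMGCS1, INHBE and TRIB3) and up to 3 called members of each list.

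The replicate number was a block, since the supplement gives replicates as independent batches. The labels of imazalil and fenbuconazole carry a P code equal to that number, and this code was read as the batch. For 2,4-D the code equals the number on only some arrays, so comparisons between chemicals took the code as the block. Deviations from dose means correlated at a mean r of 0.0889 (-0.229 to 0.312) within a number and -0.0443 between numbers, and for 12 of 18 arrays the best match had the same number. Alternatives changed the block, the arrays, the reference, the normalization, the filter, the prior and the probe set rule.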

Additional observations from a re-analysis of the deposited data

Results flagged for a closer look

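Responses at 3 µM were marked where imazalil differed from another chemical by the test of the difference itself (limma, adjusted over all probe sets). All values are the imazalil response minus the other on the log2 scale, each response taken against the low doses of its own chemical. Against fenbuconazole they were 1.67 for CYP2B6, 1.67 for CYP1A1, 1.24 for ZSCAN25, 1.15 for CYP3A4, 1.03 for CYP3A7 and 0.68 for LOC114224. The LOC114224 responses were 0.48 with imazalil and -0.20 with fenbuconazole.

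Against 2,4-D the P450 genes differed by 3.30 (CYP2B6), 1.90 (CYP3A4), 1.62 (CYP1A1), 1.52 (CYP2B7P), 1.48 (CYP3A7), 1.21 (CYP2A6) and 1.02 (CYP2A7), and ZSCAN25 by 2.03. Smaller differences were 0.75 for TSKU, 0.61 for GPX2, 0.50 for POR, 0.47 for ALDH3A1, 0.46 for AP1M2 and 0.35 for ABCB1, with -0.67 for ADH1A and -0.64 for RRP1B. DPY19L2, a membrane protein needed for sperm head formation, differed by -0.90, with -0.41 for imazalil and 0.49 for 2,4-D. SIGLEC7, a lectin of natural killer cells, differed by 0.60, with 0.39 for imazalil and -0.21 for 2,4-D. These last 2 genes were named after their values were seen. No group of 4 to 10 arrays was present in which a single outlying array could be examined.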

How the results depend on the processing

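Counts are given as probe sets, genes that rose and genes that fell, beside 57, 23 and 8. With no replicate block they were 42, 18 and 3, and with the replicate block as a random effect 43, 18 and 3. Leaving out a replicate number or an array at 3 µM gave 22 to 554, 10 to 86 and 0 to 129. Without the 0.001, 0.003, 0.01 or 0.03 µM arrays, probe sets numbered 28, 36, 28 and 28, rises 14, 16, 14 and 13, and falls 2, 3, 1 and 1. With DMSO as the reference, 6 arrays in all, 7 probe sets, 4 rises and 0 falls were called. Columns shifted to the same median left 14 rises, and an intensity trend with a robust prior gave 93 probe sets and 18 falls. Quantile normalization without the second array at 3 µM, chosen after seeing the data, gave 354, 86 and 56. Leaving out the arrays of 1 P code gave 7 to 26 probe sets for imazalil minus fenbuconazole and 16 to 108 for imazalil minus 2,4-D. Of 31 called genes, 4 passed under all 21 alternatives, and none changed direction. Genes near 0 did: CYP1B1 had 0.10 and TRIB3 0.02 against DMSO, TRIB3 had 0.03 after quantile normalization, -0.08 to 0.03 with an array or replicate left out and 0.06 as the mean of its probe sets, and HMGCS1 had -0.03 as such a mean. CYP1A1, CYP2B7P, CYP2A6, CYP2A7 and TSKU lost their call only against DMSO. CYP1A2 passed under 5 alternatives. The causes were not tested.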

Other observations

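Some genes had a called probe set that was not their brightest, and these were named after their values were seen. TXNIP, an inhibitor of thioredoxin, had a probe set lower by -0.44 (SE 0.08, adjusted p = 0.0173 from limma) at 3 µM, and its brightest probe set had -0.11. YIPF6, a Golgi membrane protein, had -0.55 in 1 probe set and -0.01 in the brightest, and RBBP6, a ubiquitin ligase, had -0.73 and 0.08. Higher probe sets were those of EXOC6 (0.53, with -0.32 in its brightest), MYO7A (0.51, with -0.04) and JAK1 (0.41, with -0.02). Probe sets of these genes thus gave different values, and which transcripts they read was not tested. HSD3B1, a steroid dehydrogenase, had a difference of -0.35 (adjusted p = 0.051 from limma) and fell just short of the threshold.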
